A study of Mus musculus with 9 samples.

Results

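Class IIa histone deacetylases and the MEF2 transcription factors were followed in BeCon cells, a mouse ovarian tumor cell line. The 8 genes (Hdac4, Hdac5, Hdac7, Hdac9, Mef2a, Mef2b, Mef2c and Mef2d) were taken by name as the whole of both families, 4 genes each, from 48230 genes in the deposited table. RNA was sequenced from 9 libraries. In 8 of them BeCon cells were taken from ascites of B6 mice that carried the tumor and had received either vehicle (4 libraries) or YKL-05-099 (4 libraries), a compound that inhibits salt-inducible kinases. This tumor fraction had been sorted as viable CD45-, MHCI+ cells. The last library came from BeCon cells grown in vitro and has no replicate. The labels give no dose, duration of treatment or age of the mice. They also leave unsaid whether each library stands for 1 animal or several, and the p-values reflect only how these libraries vary. Library names begin alike within each mouse group and differently between the groups, and whatever lies behind these names cannot be told apart from treatment.

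Class IIa deacetylases have little enzymatic activity of their own toward acetyl-lysine. They act mainly as scaffolds that bind MEF2 factors on DNA and bring in NCoR corepressor complexes with Hdac3. Phosphorylation by salt-inducible kinases, calcium/calmodulin-dependent kinases, protein kinase D or AMPK creates binding sites for 14-3-3 proteins, which hold the deacetylases in the cytoplasm and free MEF2 to activate its targets. Phosphatases reverse this. MEF2 factors are best known from muscle, heart, neurons and lymphocytes. All of this control acts on the protein, and the values below are of RNA only.

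The MEF2 binding element was searched on both strands in RefSeq promoter windows (GRCm38.p6, 250 bases before to 50 after each start), where all 8 genes had a window and 14 windows were found in all. It was present in 183 of 32851 windows of the genome (0.557%), and among the 8 genes in Hdac5 and Mef2a only. Both stretches are shown, 5′ to 3′ on the gene's strand, since they are where the windows of these families carry this form of the factors' own motif. The element is in capitals, and it covers chr11:102230183-102230192 (minus strand) for Hdac5 and chr7:67372851-67372860 (minus strand) for Mef2a.
Hdac5: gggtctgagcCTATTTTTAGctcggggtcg
Mef2a: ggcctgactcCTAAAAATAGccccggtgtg

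In Hdac5 the element lies 20 to 11 bases before the start, and in Mef2a it runs from 2 bases before the start to base 8 of the transcript. A match describes these letters and not a bound site. Upstream sequence is also shown for Mef2a and Mef2d, because these genes exchanged places in the order of levels described further on. Each run holds the 250 bases before the start, at chr7:67372859-67373108 (minus strand) and chr3:88142122-88142371 (plus strand). Capitals mark the first bases of the element, which end the Mef2a run, and the Mef2d window held no match.
Mef2a: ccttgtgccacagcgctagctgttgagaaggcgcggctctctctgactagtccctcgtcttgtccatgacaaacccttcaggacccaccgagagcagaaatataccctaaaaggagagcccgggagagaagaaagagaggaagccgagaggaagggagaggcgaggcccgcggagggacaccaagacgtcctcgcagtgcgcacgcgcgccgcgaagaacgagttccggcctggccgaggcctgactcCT
Mef2d: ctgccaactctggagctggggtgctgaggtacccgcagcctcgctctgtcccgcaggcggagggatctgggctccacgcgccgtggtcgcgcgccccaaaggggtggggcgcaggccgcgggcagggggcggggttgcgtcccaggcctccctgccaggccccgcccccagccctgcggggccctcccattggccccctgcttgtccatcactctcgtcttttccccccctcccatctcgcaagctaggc

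The cAMP response element (CRE), the site of CREB, was searched as TGACGTCA and is held by 1.79% of all windows and by no window of the 8 genes. Its core TGACG, which every full site also contains, was in 20.8% of windows and occurred 3 times in Hdac4 and 2 times in Hdac5. These counts are descriptions of the windows and were not set against binding data.

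Values are FPKM, fragments scaled to transcript length and to the mapped fragments of the library, so levels of different genes can be set side by side. Between 11421 and 11893 genes reached an FPKM of 1 in a library, and the approximate depth was 23000000 to 35000000 fragments. Wt1, a marker of the ovarian surface and mesothelial lineage, stood at 501 to 565 FPKM in the mouse libraries and at 373 in culture. Of the 12 epithelial and ovarian tumor markers listed with it, Epcam, Cdh1, Pax8 and Sox17 stayed under 1 FPKM in all 9 libraries. Krt8 (44.3 to 71.6 FPKM), Krt18 (156 to 251), Krt19 (271 to 466), Msln (27.0 to 41.6) and Upk3b (118 to 633) were expressed in all 9. Krt7 (19.4 to 37.8 FPKM) and Muc16 (5.77 to 11.1) were expressed in the mouse libraries and lay under 1 FPKM in culture. Markers of other cell types differed between the groups. The summed FPKM of 16 macrophage markers was 157 to 351 in vehicle, 21.9 to 88.6 in treated and 10.2 in cultured libraries, and 10 of the 11 that could be tested were called lower. The defining marker Adgre1 was 0.61 to 1.57 FPKM in vehicle, 0.018 to 0.193 in treated and listed at 0 in cultured cells, and Ptprc, the CD45 gene, ran from 0.346 to 0.772, from 0.0308 to 0.276 and at 0. Of the other lists, 7 erythroid markers summed to 244 to 1490 in vehicle and 1.45 to 92.8 in treated libraries, and 8 B cell markers to 13.8 to 53 and 0.639 to 1.41. The 8 fibroblast markers summed to 656 to 709 in vehicle, 555 to 634 in treated and 338 in cultured cells, where Dcn alone gave 243. Of the 6 that could be tested, 5 were called lower. In culture 5 of the 8 reached 1 FPKM, and Col1a1 at 32.2 was above every mouse library. Col1a2 was 12.4 to 24.9 FPKM in vehicle, 2.03 to 3.49 in treated and 0.067 in cultured cells, where Thy1 and Lum were listed at 0. The cell line itself thus expresses some of these genes and not others. Cd3e reached at most 0.0265 FPKM, and Pecam1 ran from 1.11 to 1.91. In such bulk samples fewer cells of a type and less RNA per cell cannot be told apart.

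Of the 8 genes, 6 passed the filter of at least 1 FPKM in at least 4 of the 8 mouse libraries, and 3 of these were called between treated and vehicle cells, Mef2d higher and Hdac7 and Mef2a lower. A call means a Benjamini-Hochberg adjusted p under 0.05 in limma over all genes tested. Over all 11788 genes tested 43.2% were called, 28.0% higher and 15.1% lower, so a count of 3 in 6 is near the background and says nothing particular about these families. The higher share of the calls depended on scaling, with 3304 higher and 1785 lower as deposited, 2573 and 2332 after median-of-ratios scaling and 2511 and 2411 after quantile normalization. The same 3 genes were those of the 6 whose treated and vehicle values did not overlap, against 40.0% of all genes. All fold changes below are differences of log2(FPKM + 1), treated minus vehicle, which understates changes of low genes.

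**Figure D1:**
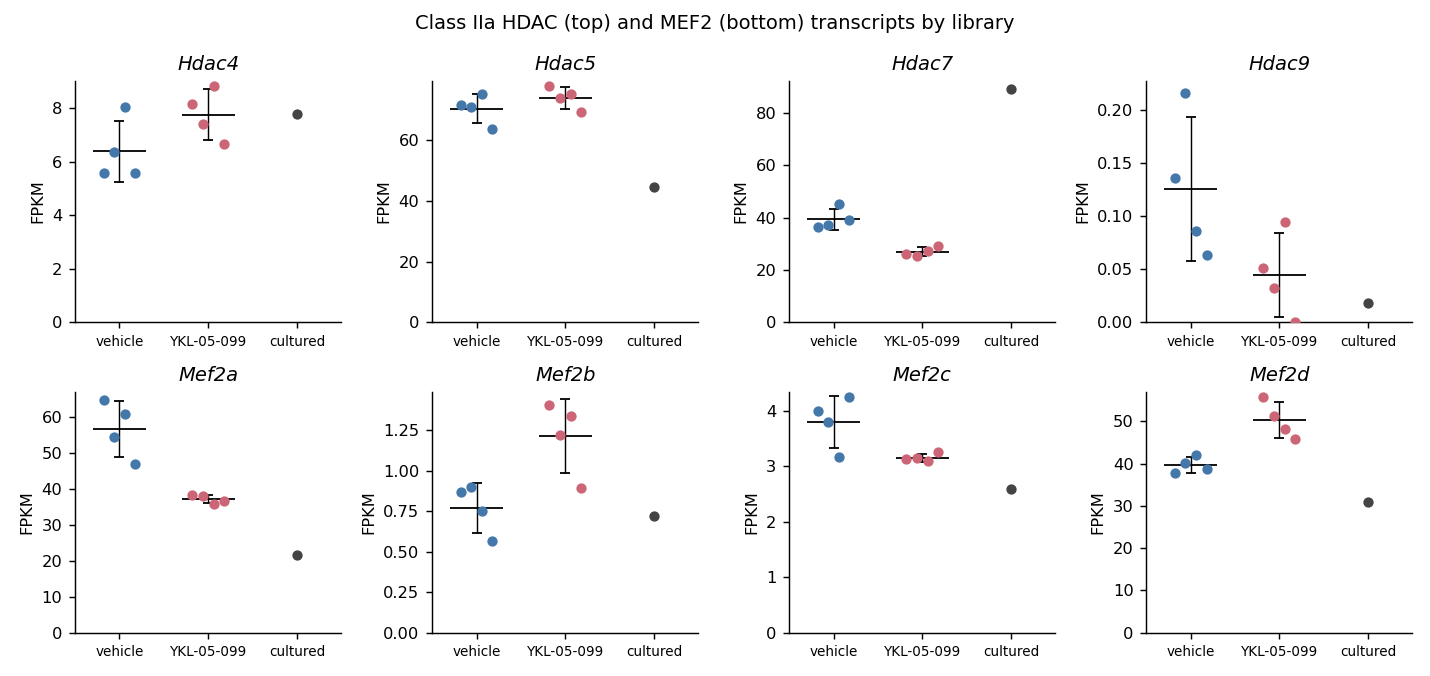
FPKM of the 4 class IIa deacetylase genes (top) and the 4 MEF2 genes (bottom) in each library, with points for libraries, horizontal lines for group means and bars for the SD of 4 libraries; the cultured group is 1 library. Hdac7 and Mef2a lie lower and Mef2d higher in all 4 treated libraries than in any vehicle library. The cultured point lies highest for Hdac7 and lowest for Hdac5, Mef2a, Mef2c and Mef2d.

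Hdac7, the class IIa gene best known from endothelium and thymocytes, fell after treatment. It stood at 36.3, 37.1, 45.2 and 39.1 FPKM in the vehicle libraries and at 26.1, 25.4, 27.0 and 29.3 FPKM in the treated ones. Every treated library lay below every vehicle library. The mean went from 39.4 ± 4.01 to 27.0 ± 1.71 FPKM (SD, n = 4 each), a log2 fold change of -0.53 (SE 0.073, 95% interval -0.69 to -0.37, limma adjusted p = 0.000414), so that the mean fell by 31.6%. When the average of 15 pan-leukocyte markers entered the fit as a covariate it was -0.74 (limma adjusted p = 0.0131), and Hdac7 was then the only member called. The gene (ENSMUSG00000022475, GRCm38 chromosome 15, 97792664 to 97844502, minus strand) overlaps the end of Slc48a1 on the other strand by 29 bases.

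Hdac5 was the most abundant of the 8 genes in both groups of mice and was not called. Its values were 71.7, 70.8, 75.3 and 63.8 FPKM in vehicle and 77.9, 73.8, 75.4 and 69.2 FPKM in treated libraries, and the groups overlapped. The log2 fold change was 0.07 (SE 0.058, limma adjusted p = 0.329), with a 95% interval of -0.06 to 0.20 on that scale. Hdac5 (ENSMUSG00000008855) lies on chromosome 11, 102194432 to 102230166, minus strand.

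Hdac4, the class IIa gene studied most in growth plate chondrocytes and a direct substrate of salt-inducible kinases, stood far below Hdac5. The vehicle libraries held 5.57, 6.35, 8.03 and 5.58 FPKM and the treated ones 8.16, 7.40, 8.84 and 6.66 FPKM. Vehicle replicate 3 reached into the treated range, and the groups overlapped. The log2 fold change of 0.25 (SE 0.114, 95% interval -0.0011 to 0.51) missed the threshold (limma adjusted p = 0.0984). It was called in 1 of the 8 fits that left out a library, that without vehicle replicate 3 (0.35, limma adjusted p = 0.0183). The gene (ENSMUSG00000026313) lies on chromosome 1, 91928779 to 92195699, minus strand.

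Hdac9 was near the floor and was not tested in the filtered fit. It was read at 0.136, 0.216, 0.086 and 0.0634 FPKM in vehicle libraries and at 0.0506, 0.0325, 0.0945 and 0 FPKM in treated ones, with overlap. The fit without a filter gave -0.11 (SE 0.046, limma adjusted p = 0.162). This gene, itself a known MEF2 target in muscle, spans chromosome 12, 34047580 to 34917095, minus strand.

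Among the MEF2 factors Mef2a, a broadly expressed member with a central part in heart muscle, fell. Its values were 64.8, 54.5, 60.7 and 47.0 FPKM in vehicle and 38.2, 38.1, 35.9 and 36.7 FPKM in treated libraries. The vehicle libraries were spread over a wider range than the treated ones and the groups did not overlap. The mean went from 56.8 ± 7.77 to 37.2 ± 1.10 FPKM and so fell by 34.4% (log2 fold change -0.59, SE 0.086, 95% interval -0.78 to -0.39, limma adjusted p = 0.000607). With the pan-leukocyte covariate the value was -0.50 (SE 0.172) and the call was lost (limma adjusted p = 0.129). Mef2a (ENSMUSG00000030557, chromosome 7, 67231163 to 67372858, minus strand) overlaps Lysmd4 on the other strand over 76168 bases. Lysmd4 was read at 4.90 to 5.74 FPKM in vehicle and 5.68 to 6.89 FPKM in treated libraries.

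Mef2d, a broadly expressed factor known from muscle, neurons and immune cells, moved the other way. It stood at 37.7, 40.0, 42.1 and 38.8 FPKM in vehicle and at 55.7, 51.3, 48.2 and 45.9 FPKM in treated libraries, again without overlap. The mean went from 39.7 ± 1.88 to 50.3 ± 4.26 FPKM, 26.8% higher, and the log2 fold change was 0.33 (SE 0.063, 95% interval 0.19 to 0.47, limma adjusted p = 0.00239). With the pan-leukocyte covariate it was 0.33 (SE 0.128) and no longer called (limma adjusted p = 0.173). Mef2d (ENSMUSG00000001419, chromosome 3, 88142372 to 88172086, plus strand) shares 531 bases with the antisense gene 1700113A16Rik, which was read at 0.77 to 1.76 FPKM over the 9 libraries.

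Mef2c, a regulator of heart, bone, lymphoid and neuronal development, was expressed at a low level and not called. The vehicle libraries gave 3.99, 3.79, 3.16 and 4.24 FPKM and the treated libraries 3.13, 3.14, 3.09 and 3.26 FPKM. Vehicle replicate 3 lay within the treated range and the other 3 above it. The log2 fold change was -0.20 (SE 0.081, 95% interval -0.38 to -0.022, limma adjusted p = 0.0675). It was called in 1 of the 8 fits that left out a library, that without vehicle replicate 3 (-0.27, limma adjusted p = 0.0176). Scaling also decided this call. After median-of-ratios scaling the value was -0.24 (limma adjusted p = 0.0399) and after quantile normalization -0.30 (limma adjusted p = 0.0198). Mef2c lies on chromosome 13, 83504034 to 83667080, plus strand.

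Mef2b, a factor of germinal center B cells, did not pass the filter. It was read at 0.871, 0.898, 0.749 and 0.564 FPKM in vehicle and at 1.41, 1.22, 1.34 and 0.894 FPKM in treated libraries, where treated replicate 4 fell just inside the vehicle range. Without a filter the log2 fold change was 0.32 (SE 0.101, limma adjusted p = 0.0628). The row (chromosome 8, 70152778 to 70167488, plus strand) lies wholly inside that of Borcs8, at 29.7 to 36.4 FPKM in the mouse libraries, so the split of reads between these 2 genes makes Mef2b uncertain. The 8 markers of B cells and plasma cells moved the other way, from 13.8 to 53 FPKM in vehicle to 0.639 to 1.41 FPKM in treated libraries.

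**Figure D2:**
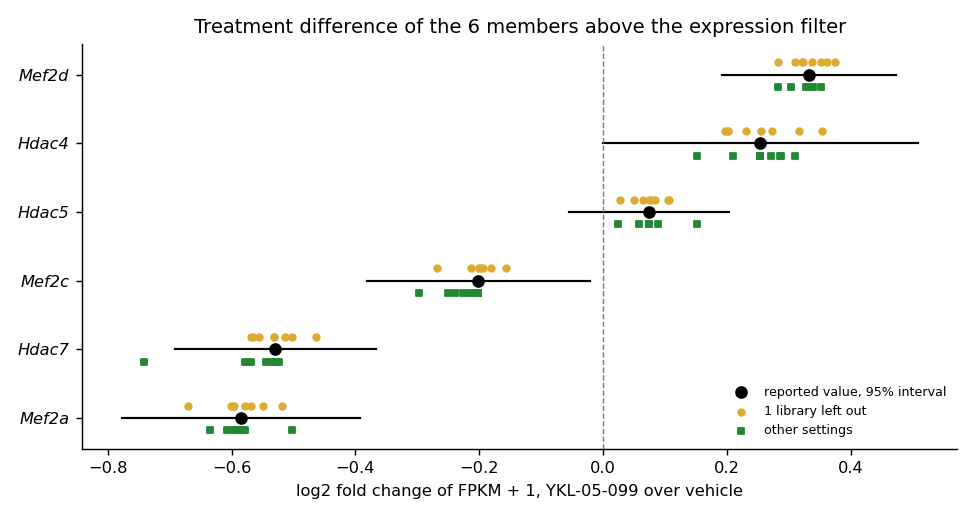
Log2 fold change of FPKM + 1, treated over vehicle, of the 6 genes above the filter, as the reported value with its 95% interval (black), in the 8 fits that leave out 1 library (yellow) and under other settings (green). Mef2d lies above 0 and Mef2a and Hdac7 below 0 in every fit shown, and the interval of Hdac5 spans 0.

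The 3 called genes kept their direction and their call in all 8 fits that left out a library and under the 3 other scalings. Macrophage marker RNA differed between the groups without overlap and also varied within them. The 16 markers summed to 253, 351, 157 and 166 FPKM in vehicle replicates 1 to 4, in which Hdac7 was 36.3, 37.1, 45.2 and 39.1 FPKM. They summed to 21.9, 82.7, 88.6 and 22.3 FPKM in treated replicates 1 to 4, in which Hdac7 was 26.1, 25.4, 27.0 and 29.3 FPKM. Of these treated sums Cd68, which the cultured cells also express, gave 9.23, 15.6, 14.9 and 15.8 FPKM. In the same order Mef2a was 64.8, 54.5, 60.7 and 47.0 FPKM in vehicle and 38.2, 38.1, 35.9 and 36.7 FPKM in treated replicates. Mef2d was 37.7, 40.0, 42.1 and 38.8 FPKM in vehicle and 55.7, 51.3, 48.2 and 45.9 FPKM in treated replicates. Within a group these values were not tested against the marker sums. The part of macrophage RNA in the difference between vehicle and treated cells was not tested. The fit with the pan-leukocyte covariate cannot separate it from treatment, since the covariate itself differs between the groups. That covariate was 1.26 to 1.82 in vehicle, 0.578 to 1.01 in treated and 0.721 in cultured cells (mean log2(FPKM + 1)), without overlap between the mouse groups. In culture it rested mostly on Lsp1 (5.96 FPKM), Cytip (5.67 FPKM) and Ptpn6 (4.23 FPKM), so it holds some expression of the tumor cells themselves.

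**Figure D3:**
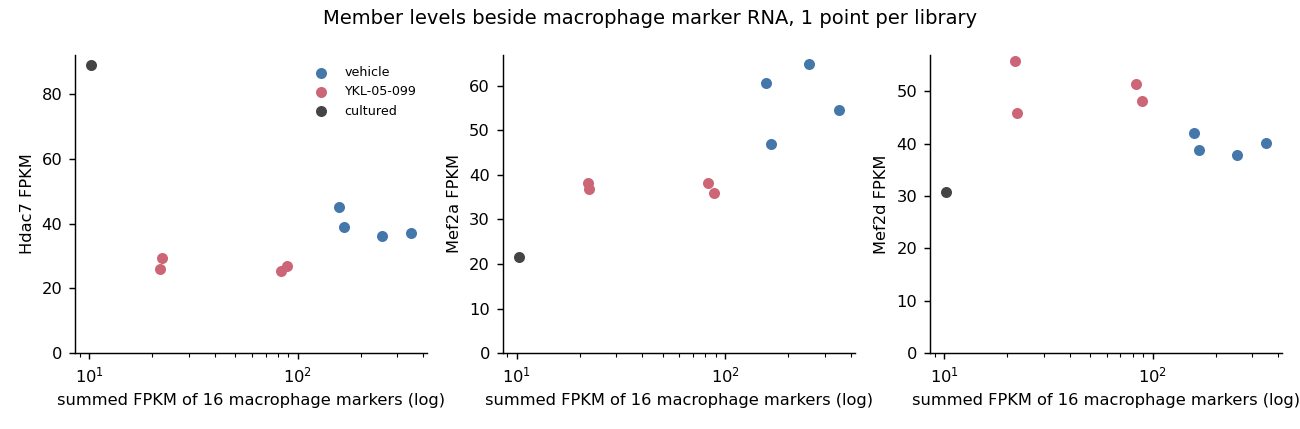
FPKM of Hdac7, Mef2a and Mef2d in each library (vertical axes, from 0) against the summed FPKM of 16 macrophage markers (horizontal axes, log scale), 1 point per library. The treated libraries (21.9 to 88.6 FPKM of marker RNA) lie wholly to the left of the vehicle libraries (157 to 351), and the cultured library lies at 10.2.

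Levels fell into an upper and a lower set. In vehicle libraries the order by mean was Hdac5 (70.4 FPKM), Mef2a (56.8), Mef2d (39.7), Hdac7 (39.4), Hdac4 (6.38), Mef2c (3.80), Mef2b (0.771) and Hdac9 (0.125). Hdac5 and Mef2a overlapped in their library ranges, as did Mef2d and Hdac7, and no other neighbours did. In treated libraries Mef2d (50.3 FPKM) stood next to Hdac5 and Mef2a (37.2 FPKM) after it, and no neighbours in the order overlapped. In culture the order was Hdac7 (89.1 FPKM), Hdac5 (44.7), Mef2d (30.8), Mef2a (21.6), Hdac4 (7.78), Mef2c (2.59), Mef2b (0.72) and Hdac9 (0.0178).

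Within each library the ratio of Mef2a to Mef2d was 1.72, 1.36, 1.44 and 1.21 in vehicle and 0.686, 0.742, 0.745 and 0.801 in treated cells. Mef2a was thus the more abundant transcript in every vehicle library and Mef2d in every treated one. The summed FPKM of the 4 MEF2 genes was 101 ± 7.84 in vehicle and 91.9 ± 5.30 in treated libraries, and the share of Mef2a in it went from 56.0 ± 3.57% to 40.6 ± 1.43%. The share of Mef2d went from 39.4 ± 3.22% to 54.6 ± 1.52%. Such ratios do not depend on a library's scaling factor. They follow from the values tested above and were not tested again.

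The ratio of Hdac7 to Hdac5 was 0.507, 0.524, 0.600 and 0.613 in vehicle and 0.335, 0.344, 0.359 and 0.424 in treated libraries, without overlap. Hdac5 made up 60.6 ± 2.21% of the class IIa sum in vehicle and 68.0 ± 1.67% in treated libraries, and Hdac7 33.8 ± 2.01% and 24.8 ± 2.12%. The sum itself was 116 ± 8.60 and 109 ± 3.42 FPKM.

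**Figure D4:**
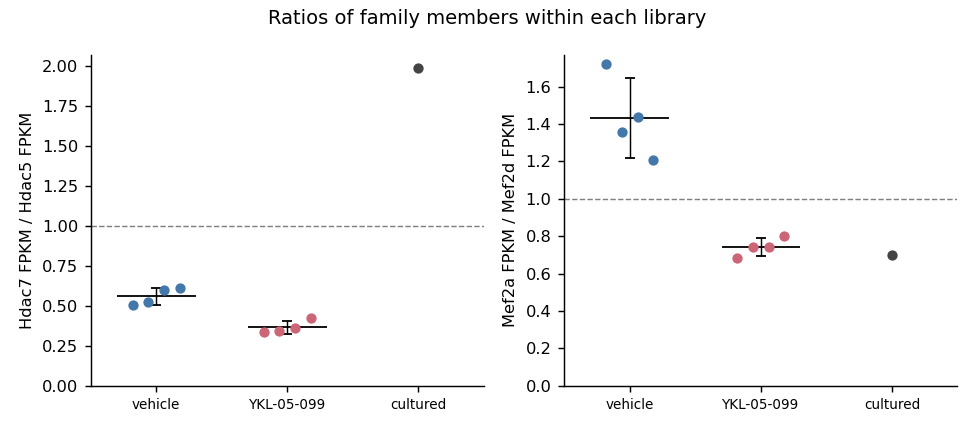
Ratio of Hdac7 to Hdac5 FPKM (left) and of Mef2a to Mef2d FPKM (right) in each library, with lines for group means and bars for the SD of 4 libraries; the dashed line marks equal levels. Mef2a exceeded Mef2d in the 4 vehicle libraries alone, and Hdac7 exceeded Hdac5 in the cultured library alone.

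The cultured library was set beside the mouse libraries by size alone, without a test. A gene was apart if it was higher or lower in culture than in any of the 8 mouse libraries and differed from the vehicle mean by 1 log2 unit or more, which held for 20.2% of 12296 genes. Of the 8 genes 2 were apart, Hdac7 and Mef2a, in opposite directions. Hdac7 at 89.1 FPKM was 2.26 times its vehicle mean, and the ratio of Hdac7 to Hdac5 was 1.99. Mef2a at 21.6 FPKM lay below every mouse library, with a vehicle mean 2.63 times as high. Treated cells thus lay between vehicle and cultured cells for Mef2a but not for Hdac7, which was lower than vehicle after treatment and higher in culture. Hdac5 (44.7 FPKM), Mef2d (30.8) and Mef2c (2.59) were also below all mouse libraries without reaching the rule of size. Their log2 differences from the vehicle mean were -0.64, -0.35 and -0.41. The ratio of Mef2a to Mef2d was 0.699. With 1 cultured library, culture itself, the missing sort and the library cannot be told apart.

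By mean absolute difference of centred log2(FPKM + 1) profiles over the 9 libraries, the 5 genes most like Mef2a were Adgrl2 (0.056), Gata4 (0.058), Usp53 (0.067), Tshz2 (0.070) and Zfp784 (0.071). Adgrl2, an adhesion receptor gene, was 79.5 to 109 FPKM in vehicle, 59.3 to 61.3 in treated and 33.9 in cultured cells. Gata4, a transcription factor of the heart and gonads, was 123 to 181, 101 to 111 and 66.9 FPKM. Tshz2 (1.34 to 2.02, 0.713 to 1.05 and 0.0103 FPKM) and Zfp784 (1.32 to 2.23, 0.87 to 1.05 and 0.247 FPKM) lay near the filter. There the 1 added to FPKM flattens a profile, so their likeness rests partly on that scale. The 5 most like Mef2d were Zscan21 (0.043), Zkscan5 (0.048), Rapgef2 (0.048), Pip5k1a (0.053) and Grk5 (0.056). Zscan21, a zinc finger gene, was 11.6 to 12.6, 14.4 to 15.5 and 9.04 FPKM. The measure was taken over libraries that differ by treatment and culture, so the likeness carries the same group differences and has no test.

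The partners of both families were read from 7 lists of pathway genes with 77 distinct genes tested. Of these 41.6% were called (20 higher and 12 lower), beside 43.2% of all genes tested. The called share was 28.6% for kinases, 28.6% for 14-3-3 proteins, 44.4% for phosphatases and 16.7% for the NCoR complex. It was 42.9% for other deacetylases and sirtuins, 50% for MEF2 coregulators and activating kinases and 61.5% for MEF2 target genes. All phosphatase calls were lower, beside 15.1% called lower over all genes. All calls among kinases (28.6%) and among other deacetylases and sirtuins (42.9%) were higher, beside 28.0% called higher over all genes. The lists are small, and none was tested as a set. Of 21 kinase genes listed for class IIa deacetylases 14 were tested, and 4 rose, none fell and 10 were not called, with a list median of -0.0097 beside 0.054 over all genes tested. Camkk1, an upstream kinase of the calmodulin kinase cascade, rose from 3.70 ± 0.918 to 12.3 ± 0.697 FPKM (log2 fold change 1.52, limma adjusted p = 1.87e-05) and was 0.191 FPKM in culture. Sik1 rose from 39.2 ± 7.07 to 95.1 ± 8.91 FPKM (log2 fold change 1.27, limma adjusted p = 4.66e-05). Stk11, the LKB1 gene whose product activates salt-inducible kinases, rose from 44.2 ± 3.53 to 60.7 ± 0.882 FPKM (log2 fold change 0.45, limma adjusted p = 2e-04), and Sik3 was the fourth (0.31). These 4 were called higher under the 3 other scalings as well. The absence of lower calls depended on scaling, since Mark3, Prkaa1 and Prkd3 were called lower after quantile normalization, and these and Mark2 (4 in all) after median-of-ratios scaling. With the pan-leukocyte covariate Sik1 (1.63, limma adjusted p = 0.00267) and Camkk1 (1.13, limma adjusted p = 0.0124) were the only pathway genes called. That fit is less precise, with a median standard error over all genes of 0.13 against 0.0697, so a lost call there cannot be told apart from lower precision.

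Sik2 was among the 10 not called, with 11.4 ± 1.12 FPKM with vehicle and 12.01 ± 1.14 FPKM with the inhibitor (limma adjusted p = 0.545). Of 7 genes of 14-3-3 proteins, which dock on the phosphorylated deacetylases, 1 rose and 1 fell, with a median of -0.027. Ywhaz went from 204 ± 6.53 to 229 ± 2.43 FPKM (0.17, limma adjusted p = 0.00778), and after median-of-ratios scaling the call was lost (0.115, limma adjusted p = 0.0514). Ywhag went from 83.2 ± 2.90 to 76.3 ± 2.70 FPKM (-0.12, limma adjusted p = 0.0422), a call held in 1 of 8 fits that left out a library (-0.14 to -0.10) and lost after TPM scaling.

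Among 9 phosphatase genes, whose products reverse these phosphorylations or act on MEF2, 4 fell, none rose and 5 were not called, with a median of -0.15. Ppp2cb, a catalytic subunit of protein phosphatase 2A, fell from 74.6 ± 2.53 to 63.6 ± 1.82 FPKM (-0.23, limma adjusted p = 0.00193). Ppp3r1, the regulatory subunit of calcineurin, was lower at 60.3 ± 2.98 FPKM than in vehicle at 71.3 ± 1.41 FPKM (-0.24, limma adjusted p = 0.00211). Ppp2ca, the other catalytic subunit of protein phosphatase 2A, fell as well (-0.15, limma adjusted p = 0.00726). Ppp3cc, the fourth, was called in 1 of 8 fits that left out a library, and the other 3 in all 8. Other scalings gave 3 to 6 lower calls (33.3% to 66.7%) and none higher. Over all 11788 genes tested the same scalings called 1565 (TPM) to 2411 (quantile normalization) lower.

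The NCoR corepressor complex, through which class IIa deacetylases repress, changed in 1 of 6 genes, with a median of 0.034. Gps2, a small subunit, was 31.4 ± 0.486 FPKM in vehicle and 34.4 ± 1.21 FPKM in treated cells (0.13, limma adjusted p = 0.0288), a call held in 3 of 8 fits that left out a library (0.12 to 0.15). It was lost after median-of-ratios scaling (0.079, limma adjusted p = 0.159) and quantile normalization (0.090, limma adjusted p = 0.108), which left no gene of the complex called. Ncor1 (105 ± 5.44 and 107 ± 2.68 FPKM) and Hdac3 (41.4 ± 3.15 and 39.0 ± 1.05 FPKM) were not called. Of 14 other deacetylase and sirtuin genes 6 rose and none fell, with a median of 0.097. Sirt3, a mitochondrial deacylase, rose from 11.6 ± 0.635 to 15.3 ± 0.338 FPKM (0.37, limma adjusted p = 0.000403). Hdac10, a polyamine deacetylase, rose from 14.2 ± 0.920 to 18.3 ± 0.702 FPKM (0.35, limma adjusted p = 0.000967), and Sirt1 from 6.59 ± 0.644 to 8.72 ± 0.863 FPKM (0.36, limma adjusted p = 0.00703). Hdac6, Hdac11 and Sirt7 were called by smaller values (0.15 to 0.20) that held under 1 of the 3 other scalings, and in 3, 5 and 3 of 8 fits that left out a library. Both median-of-ratios scaling and quantile normalization gave 3 higher and 1 lower call in this list, the lower being Hdac2 (-0.11, limma adjusted p = 0.0393) and Sirt5 (-0.23, limma adjusted p = 0.0196).

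Of 17 genes of MEF2 coregulators and activating kinases 16 were tested, and 4 rose, 4 fell and 8 were not called, with a median of 0.076. After median-of-ratios scaling or quantile normalization the calls were 2 higher and 5 lower. Bcl6, a repressor that recruits class IIa deacetylases, rose from 9.45 ± 2.76 to 19.3 ± 4.09 FPKM (0.97, limma adjusted p = 0.00245). Ankra2 (0.27, limma adjusted p = 0.00942) and Rfxank (0.18, limma adjusted p = 0.018), whose ankyrin repeats bind class IIa deacetylases, rose as well. Rfxank was called under 1 of the 3 other scalings. Carm1, a methyltransferase and coactivator of MEF2, fell from 27.1 ± 0.529 to 22.9 ± 1.17 FPKM (-0.23, limma adjusted p = 0.00306). Cabin1, a MEF2 corepressor, fell as well (-0.17, limma adjusted p = 0.0152), and so did Maml1 (-0.17, limma adjusted p = 0.0173), whose call was lost without vehicle replicate 3. The kinases of MEF2 itself, Mapk14 (0.11, limma adjusted p = 0.121) and Mapk7 (0.11, limma adjusted p = 0.202), were not called.

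Of 28 textbook MEF2 target genes that the table holds, 13 passed the filter. Of these, 5 rose, 3 fell and 5 were not called, with a median of -0.115. The muscle genes Myog, Myl2 and Nppa were listed at 0 in all 9 libraries. The genes that rose were Sik1 (above), Homer1 (3.18 ± 0.603 to 4.89 ± 0.380 FPKM, limma adjusted p = 0.0034), Ppargc1a, Nr4a1 and Klf4. Ppargc1a, a coactivator of mitochondrial genes, went from 2.50 ± 0.597 to 4.29 ± 0.653 FPKM (limma adjusted p = 0.00519). Nr4a1 went from 127 ± 19.3 to 237 ± 61.3 FPKM (0.865, limma adjusted p = 0.00576). Klf4 went from 110 ± 16.6 to 194 ± 54.4 FPKM (0.782, limma adjusted p = 0.0105). For Nr4a1 and Klf4 the groups overlapped, since treated replicate 4 (146 and 120 FPKM) lay within the vehicle range. Mmp10, a secreted protease, fell from 2.71 ± 0.895 to 1.31 ± 0.258 FPKM (-0.65, limma adjusted p = 0.016). Des (-0.35, limma adjusted p = 0.0359) and Rhob (-0.62, limma adjusted p = 0.0409) were called lower in 2 and 4 of the 8 fits that left out a library. Sik1, Nr4a1 and Ppargc1a are known targets of CREB as well. Hdac9 and Mef2c belong to this list and to the members.

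**Figure D5:**
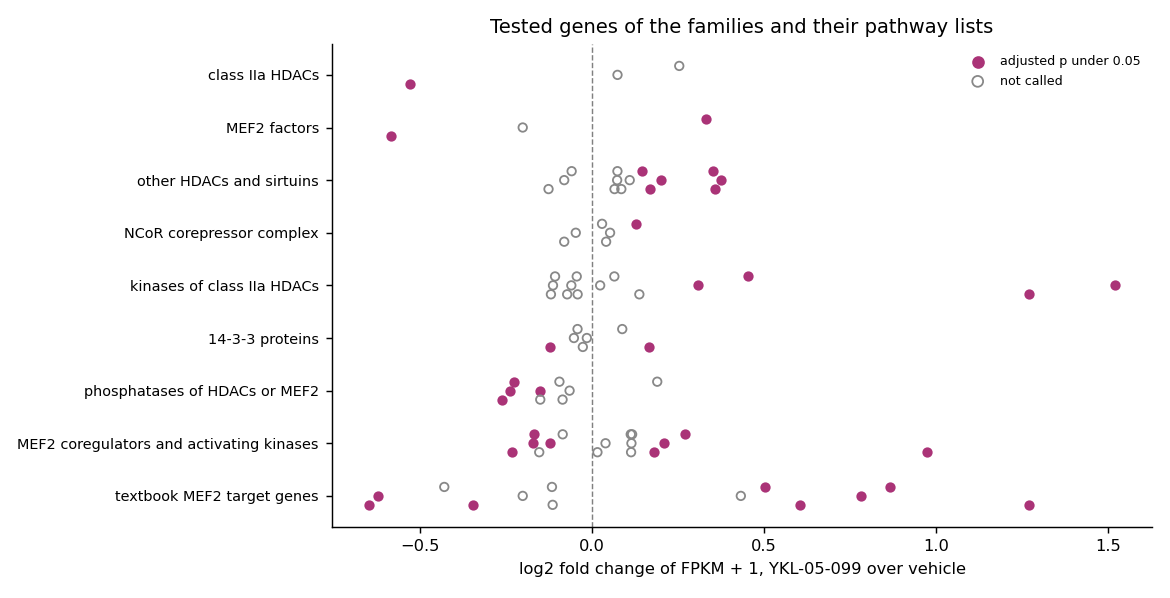
Log2 fold change of FPKM + 1, treated over vehicle, for each tested gene of both families and the 7 pathway lists, 1 point per gene, filled where the limma adjusted p is under 0.05. In the deposited scaling shown, kinase genes reach 1.52 with none called lower (4 are after median-of-ratios scaling), phosphatase genes are called only below 0, and MEF2 target genes are called on both sides of 0.

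The motifs searched in the promoters were also counted over the tested genes. Of 8908 tested genes with a RefSeq window 29.0% were called higher and 14.9% lower, with a median of 0.058. The 42 of them with a MEF2 element counted 11 higher (26.2%) and 9 lower (21.4%), with a median of -0.022. Mef2a (called lower) and Hdac5 (not called) were among them. Of 344 with a full CRE 115 (33.4%) were higher and 37 (10.8%) lower, with a median of 0.084. These are counts beside the background and were not tested.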

How the data were processed

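Per the file headers, the authors' values are FPKM with a status for every gene in every library. For demultiplexing bcl2fastq 2.19 is named, and GRCm38 as the build, in the submitters' processing notes. Which aligner and quantification program were used was not given in the sources used here. Libraries were poly(A)-selected and strand-marking, per the labels' protocols. Of 48302 rows, 65 repeats of a gene identifier and 7 genes with a failed estimate were left out. FPKM summed to 453169 to 482851 per library. Whole reads could not be recovered, and depth is approximate (from the lowest values of 5751 genes), so no counting intervals are given.

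Treated and vehicle libraries were compared on the log2(FPKM + 1) scale by limma 3.58.1 (R 4.3.3), with a mean-variance trend but no block or rescaling, on genes with at least 1 FPKM in at least 4 of 8 mouse libraries, with Benjamini-Hochberg adjustment over all genes tested. Genes with at least 1 FPKM in 4 mouse libraries or in culture entered the culture comparison. The fit was tested on simulated data. Groups came from sample titles. The members and lists were chosen with earlier results of these data known. Named genes were the 8 members, up to 3 called genes per list and direction with the smallest p, defining markers, and the 5 genes most like the called member with the largest fold in each direction. Sik2, Sik3, Nr4a1, Klf4, Ncor1, Hdac2, Hdac3, Sirt5, Mark2, Mark3, Prkaa1, Prkd3, Hdac6, Hdac11, Sirt7, Ppp3cc, Mapk14 and Mapk7 were named in addition, after their values were seen. So were Wt1, Krt7, Krt8, Krt18, Krt19, Msln, Muc16, Upk3b, Kdr, Esam, Dcn, Col1a1, Col1a2, Thy1, Lum, Lsp1, Cytip, Ptpn6 and the marker and target genes at or near 0. Promoter sequences are RefSeq's (GRCm38.p6). No protein sequence was used here, and a few genes of the lists are not reported here by name. Alternatives were pseudocounts of 0.1 and 0.5, no filter, a minimum mean of 5 FPKM, scaling by median of ratios, TPM or quantiles, a replicate block, no trend, all 9 libraries in the fit, a pan-leukocyte covariate and each mouse library left out.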

Additional observations from a re-analysis of the deposited data

Results flagged for a closer look

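In 62 groups of 4 libraries, over 31 genes, 4 groups held a library set apart from the other 3 by Dixon's 95% criterion, which chance meets in about 1 of 20 groups. None of the 8 members was among them. Hdac10 was 17.3 FPKM in treated replicate 1 and 18.6 to 18.8 FPKM in the other treated libraries. Gps2 was 32.6 FPKM in treated replicate 1, against 34.8 to 35.2 FPKM. Stk11 was 49.4 FPKM in vehicle replicate 4, against 41.7 to 42.9 FPKM, and still below every treated library. Rhob was 145 FPKM in treated replicate 4, against 281 to 289 FPKM.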

How the results depend on the processing

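None of the 6 tested members changed direction under any alternative run. Hdac7 was called under every setting run, and Mef2a and Mef2d under all but the pan-leukocyte covariate, where the median standard error over all genes went from 0.0697 to 0.13. There 616 genes, 1 member and 2 pathway genes were called, with Mef2a at -0.503 and Mef2d at 0.328. Mef2c was called after median-of-ratios scaling (-0.24), quantile normalization (-0.297) and without the mean-variance trend (-0.202). The same replicate numbers in both groups do not pair the libraries by any label, and deviations of same-numbered libraries correlated at -0.018, 0.133, -0.047 and 0.172. With a replicate block Hdac4 stayed at 0.253 with an adjusted p of 0.0324 in limma, a call that the fit without it did not make, and 4830 genes were called. Leaving out 1 library at a time gave 4182 to 5498 called genes, 3 to 5 members (5 without vehicle replicate 3), 23 to 33 pathway genes, and log2 fold changes of 0.196 to 0.354 for Hdac4, 0.0275 to 0.106 for Hdac5, -0.569 to -0.464 for Hdac7, -0.671 to -0.519 for Mef2a, -0.268 to -0.157 for Mef2c and 0.283 to 0.374 for Mef2d. Of all calls 64.9% were higher, against 52.5% after median-of-ratios scaling and 51% after quantile normalization. In culture 2 members were apart at each mouse library left out and 0 at a rule of 2 log2 units, which 632 genes met. Depth is known only approximately, so what it limits for Hdac9 and Mef2b, which lie under the filter, was not computed.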
